A study of Mus musculus with 8 samples.

Results

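Blood vessels of the sensory ganglion were followed through 34 genes that mark their cells, 22 for the endothelium and 12 for the mural cells around it, out of 24060 rows of a mouse gene count table. The genes were chosen by symbol as known markers of these cells, with earlier results of these data known. All 34 were found in the table. The study sequenced RNA of dissociated lumbar dorsal root ganglia of levels L4 to L6, the clusters of sensory nerve cell bodies whose axons run in the sciatic nerve. The groups were 4 naive and 4 injury libraries, taken 3 days after a crush of the sciatic nerve on 1 side, and naive and injured ganglia came from each of 4 mice. Strain, sex, age and genotype are not given in the labels, and no other treatment is. The ganglia were dissociated before RNA extraction, so the values describe the cells left in that preparation.

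Endothelial cells line the inside of every vessel. They are held together by adherens and tight junctions and are controlled by receptors for vascular endothelial growth factors and angiopoietins. Mural cells wrap the endothelium from outside, as pericytes on capillaries and as smooth muscle cells on larger vessels, and are recruited by platelet-derived growth factor. Capillaries around sensory neuron cell bodies are known to be more permeable than those of the brain or of the nerve itself, and ganglion vessels lie close to neurons and satellite glia.

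The kit used (QuantSeq 3′ mRNA-seq REV) primes from the poly(A) tail, so a transcript gives reads at its end and not along its length. Levels are CPM (counts scaled to library size and by TMM factors), given as mean ± SD with n = 4 libraries per group, and a level is therefore a count of transcript ends. Libraries held 16539644 to 28950551 counts, with TMM factors from 0.962 to 1.048. The axotomy gene Atf3 stood at 60.4 ± 7.88 CPM in naive and 329 ± 30.02 CPM in injury libraries, and Sprr1a at 1.10 ± 0.748 and 625 ± 117 CPM, so all libraries matched their injury labels. Differences are log2 fold changes of injury minus naive. Genes were called where the Benjamini-Hochberg adjusted p of edgeR's quasi-likelihood test over all 13770 genes tested was under 0.05. Libraries naive 2, injury 2 and injury 3 read lowest for Sox18, Rgs5 and Tagln, genes with AT-rich transcript ends. They were set apart by name and not by a test. Among marker genes and called genes, values that move much without them are also given without them. Leaving them out takes more libraries from the injury group than from the naive group. In bulk RNA, fewer cells of a type and less RNA per cell cannot be told apart.

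The endothelial genes were read at nearly the same level in naive and injured ganglia. Of the 21 endothelial genes that passed the filter on low counts, 0 were called, where 17.8% of all genes tested were called. By an unadjusted p under 0.05 there were also 0, against 30.9% of all genes, and DESeq2 and limma-voom called 0. The log2 fold changes lay above 0 for 10 genes and below 0 for 11, with a median of -0.01 beside -0.02 over all genes tested. Without naive 2, injury 2 and injury 3 the endothelial median was -0.15. Summed over the list, the endothelial level was 676, 556, 543 and 566 CPM in naive libraries 1 to 4 and 588, 591, 609 and 542 CPM in injury libraries 1 to 4. The groups overlapped, with naive 1 above all others. The means were 585 ± 61.2 and 583 ± 28.9 CPM. The 95% interval of the difference lay inside a 1.5-fold change either way for 14 of the 21 genes and inside a 2-fold change for 20, the exception being Sox18. Injury was lower in all 4 same-numbered pairs for 4 of the 21 genes and higher in all 4 for 1, beside 20.6% and 19.9% of all genes tested. In no endothelial gene did all injury libraries lie on 1 side of all naive ones, which 12.6% of all genes did upward and 10.8% downward.

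**Figure D1:**
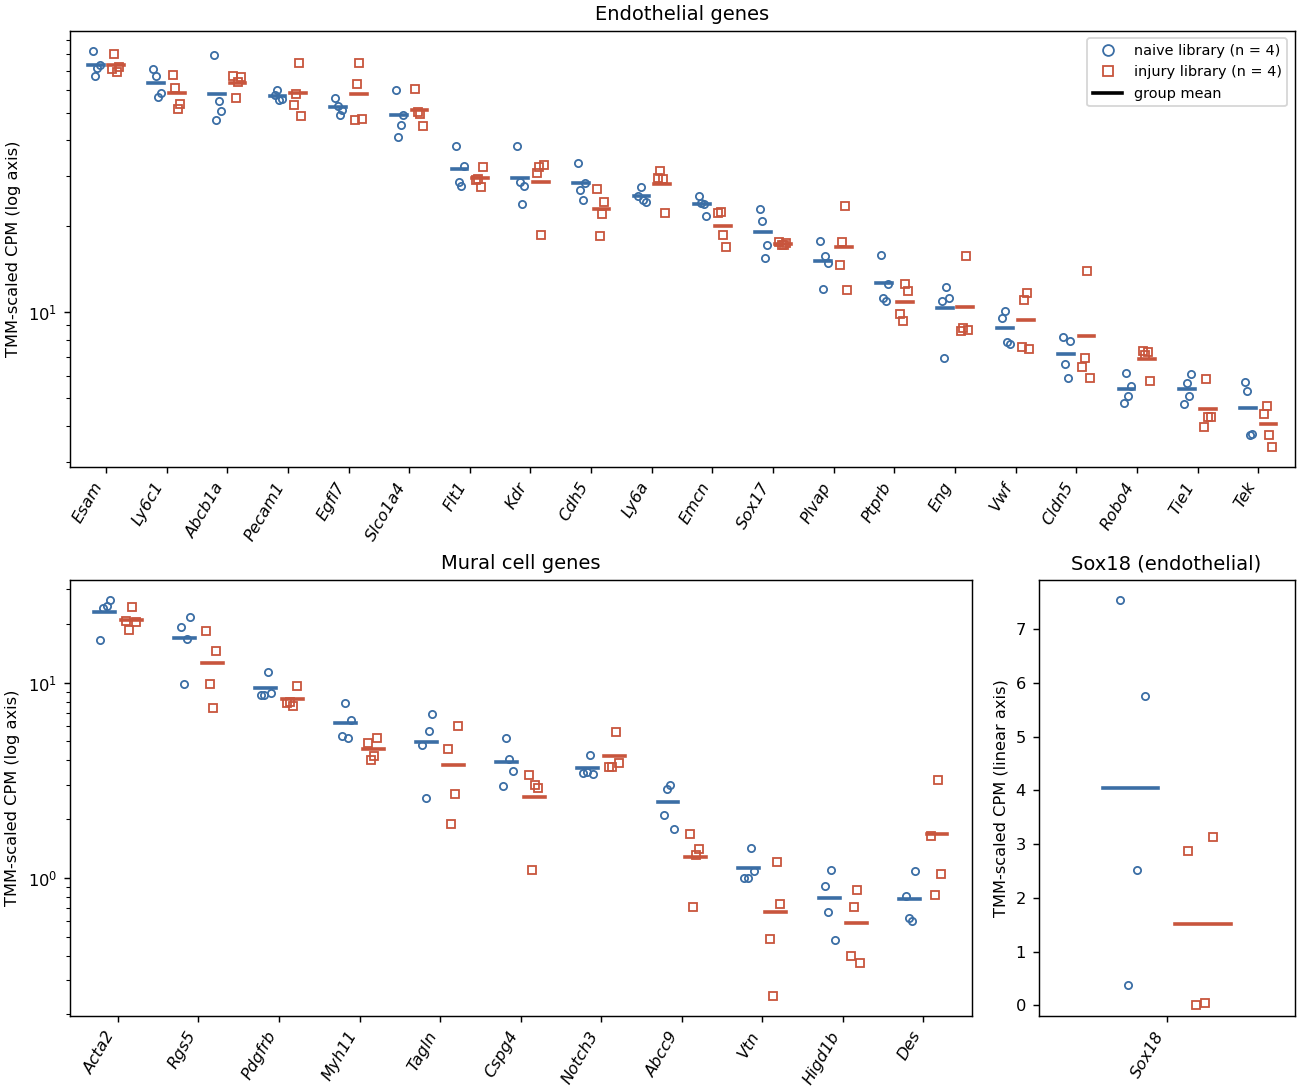
Level of each endothelial and mural gene tested in every library, in TMM-scaled CPM on log axes, with Sox18 on a linear axis because injury 2 holds 0 counts of it. Circles are naive and squares injury libraries (n = 4 each), and horizontal lines are group means. The groups overlap for every gene except Abcc9, whose injury libraries lie at 0.709 to 1.68 CPM and naive ones at 1.79 to 3.01 CPM.

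None of the receptors that control vessel growth passed the test. Kdr (VEGF receptor 2, the main signalling receptor; chromosome 5, 75932827 to 75978458, GRCm38) stood at 38.3, 28.6, 23.8 and 27.6 CPM in naive and 30.8, 32.2, 18.7 and 32.7 CPM in injury libraries 1 to 4. Only injury 3 lay below the naive range, and the log2 fold change was -0.05 (SE 0.19, adjusted p = 0.890). Flt1 (VEGF receptor 1, which binds VEGF as a decoy) had a log2 fold change of -0.10 (adjusted p = 0.605). The angiopoietin receptor gene Tek (-0.18, 95% interval -0.69 to 0.32) and its relative Tie1 (-0.22, -0.66 to 0.22) were read at about 3 to 6 CPM, with wider intervals. Ptprb, the phosphatase that restrains Tek, had a log2 fold change of -0.22 (-0.58 to 0.14). Eng (endoglin, a co-receptor for TGF-beta family ligands; chromosome 2, 32646595 to 32682669) read 10.9, 6.93, 12.3 and 11.2 CPM in naive and 8.58, 8.82, 15.7 and 8.70 CPM in injury libraries. Injury 3 held the highest and naive 2 the lowest value, and the log2 fold change was 0.02 (SE 0.24). It turned to -0.41 when naive 2, injury 2 and injury 3 were left out. The mean of Eng in those libraries was 1.02 times that in the other 5. Robo4, a guidance receptor that steadies the endothelium, had the highest log2 fold change of the endothelial list, 0.35 (SE 0.18, adjusted p = 0.205). Its naive libraries read 4.82, 6.11, 5.08 and 5.55 CPM and its injury libraries 7.30, 7.09, 7.25 and 5.76 CPM. Injury was higher in every pair, and only injury 4 reached into the naive range.

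Junction and surface genes included the lowest fold changes after Sox18, and none passed the test. Cdh5 (VE-cadherin, the adherens junction protein of endothelium; chromosome 8, 104101625 to 104144511) stood at 33.2, 26.8, 24.8 and 28.3 CPM in naive and 27.0, 18.4, 22.1 and 24.3 CPM in injury libraries. Injury was lower in every pair but the groups overlapped, and the log2 fold change was -0.30 (SE 0.14, adjusted p = 0.167). Emcn (endomucin, a sialomucin of capillaries and veins) was also lower in every pair, at 23.8 ± 1.60 against 20.1 ± 2.70 CPM (-0.25, adjusted p = 0.204). Esam, a junctional adhesion molecule and the endothelial gene with the highest level, read 66.9 to 82.0 CPM in naive and 69.4 to 80.4 CPM in injury libraries. Its interval of -0.21 to 0.20 was the narrowest of the list. Pecam1 (CD31) had a log2 fold change of 0.03 (SE 0.12), with 48.7 to 74.5 CPM over the injury libraries. Cldn5, the main tight junction claudin of endothelium (chromosome 16, 18776847 to 18778262), read 8.203, 6.59, 5.90 and 7.95 CPM in naive and 6.41, 6.91, 14.0 and 5.88 CPM in injury libraries. Injury 3 alone lay above the naive range. The log2 fold change of 0.21 (SE 0.27, adjusted p = 0.637) became -0.16 without injury 3, so its sign rests on that library.

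Genes of vessel type and of the barrier did not pass the test. Plvap, which builds the diaphragms of fenestrated and other permeable endothelium, had a log2 fold change of 0.17 (-0.26 to 0.60). The barrier-type transporters Abcb1a (P-glycoprotein, 0.13, -0.20 to 0.45) and Slco1a4 (an organic anion transporter, 0.07, -0.22 to 0.35) were close to 0. Abcb1a was highest in naive 1, at 79.7 CPM, and lay between 47.2 and 67.2 CPM in the other libraries. Ly6c1 and Ly6a, surface proteins of mouse endothelium that some blood and stem cells also carry, had log2 fold changes of -0.11 and 0.14. Ly6c1 was lower in all 4 pairs, by small steps. Vwf (von Willebrand factor, stored and released by endothelium, 0.10, SE 0.19) and Egfl7 (a secreted endothelial factor, 0.15, SE 0.14) were not called. Reads of Ly6c1, Abcb1a and Slco1a4 may be shared with close relatives such as Ly6c2 and Abcb1b, which was not checked. Egfl7, Eng, Plvap and the mural gene Tagln overlap another protein-coding gene, and the strand setting of the counting is not stated in the labels or notes.

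The endothelial transcription factors gave the list's only call under another model. Sox17, an arterial factor, read 15.5 to 23.0 CPM in naive and 17.2 to 17.6 CPM in injury libraries (-0.14, adjusted p = 0.528). Sox18 (chromosome 2, 181669836 to 181671640), which acts in vessel and lymphatic development, read 7.54, 0.382, 2.52 and 5.76 CPM in naive libraries 1 to 4. In injury libraries 1 to 4 it read 2.87, 0.00, 0.0483 and 3.13 CPM. Naive 2, injury 2 and injury 3 were the lowest, in either group. Injury was lower in every same-numbered pair, and the groups overlapped. The log2 fold change was -1.46 (SE 1.03, 95% interval -3.70 to 0.78, adjusted p = 0.366). With the replicate number as a block, which assumes that it marks the mouse, it was -2.00 with an adjusted p of 0.0418, the lowest of 15 alternative settings, whose adjusted p reached 0.631. The block called 9.01% of all genes as lower, so 1 of 21 is below that share. Erg, an ETS factor of endothelial identity, held 10 counts over the naive and 14 over the injury libraries and was not tested.

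**Figure D2:**
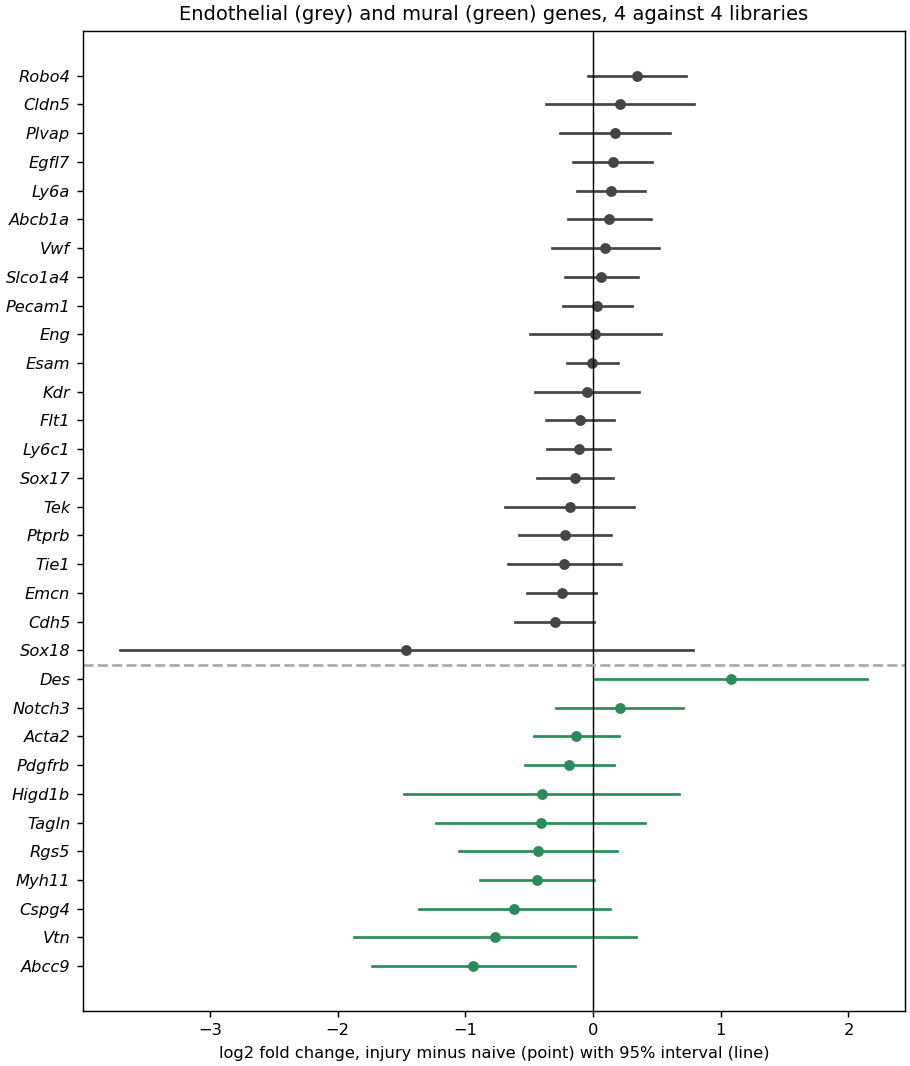
Log2 fold change of injury minus naive for each gene tested, with its 95% interval from edgeR, for 21 endothelial genes (grey, top) and 11 mural genes (green, bottom), sorted within each list. Endothelial points except Sox18 lie from -0.30 to 0.35 with short lines, while mural points reach from -0.94 to 1.08 with longer ones.

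Mural genes had mean naive levels of 0.781 to 23.0 CPM per gene, against 4.05 to 73.5 CPM for the endothelial genes tested. Their log2 fold changes lay mostly below 0, but none passed the test. Of 11 mural genes tested 0 were called by edgeR, DESeq2 or limma-voom, and 2, Abcc9 and Des, had an unadjusted p under 0.05. That is 2 of 11 beside 30.9% of all genes tested. Log2 fold changes were below 0 for 9 genes and above 0 for Notch3 and Des, with a median of -0.41. The median was -0.25 without naive 4. It was -0.17 without naive 2, injury 2 and injury 3, close to the endothelial median of -0.15 in the same setting. The summed level was 66.3, 67.3, 78.1 and 82.2 CPM in naive and 68.0, 50.3, 62.0 and 66.2 CPM in injury libraries 1 to 4. Only injury 1 lay inside the naive range, just above naive 2, while injury 2, 3 and 4 lay below all naive libraries. The means were 73.5 ± 7.90 and 61.6 ± 7.94 CPM. The precision is lower than for the endothelium, since the 95% interval stayed inside a 2-fold change for 4 of 11 genes and inside a 1.5-fold change for 2. The median coefficient of variation between libraries was 24.1% in naive and 38.8% in injury libraries, against 15.0% and 15.2% for the endothelial list. Injury was lower in all 4 pairs for 4 of the 11 genes (Tagln, Myh11, Abcc9 and Vtn) and higher for 1, beside 20.6% and 19.9% of all genes tested.

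Among pericyte genes, the potassium channel subunit gene Abcc9 (the SUR2 part of the KATP channel; chromosome 6, 142587862 to 142702315) gave the lowest p. It read 2.10, 2.87, 3.01 and 1.79 CPM in naive libraries 1 to 4 and 1.68, 0.709, 1.30 and 1.41 CPM in injury libraries 1 to 4. All injury libraries lay below all naive ones, which holds for 10.8% of all genes tested and for 1 of 11 mural genes. The log2 fold change was -0.94 (SE 0.37, 95% interval -1.73 to -0.14, adjusted p = 0.0992), and it was not called under any of 15 other settings (adjusted p from 0.0788 to 0.490). Kcnj8, the gene of the pore subunit that pairs with SUR2, was too low to test, with 0.276 ± 0.145 against 0.343 ± 0.209 CPM.

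Pdgfrb, the receptor through which endothelial PDGF holds pericytes, differed little, at 9.37 ± 1.31 against 8.24 ± 0.896 CPM (-0.19, -0.53 to 0.16). Cspg4 (NG2, a pericyte proteoglycan) read 2.96, 5.21, 4.05 and 3.54 CPM in naive and 3.36, 1.10, 2.99 and 2.88 CPM in injury libraries. Injury 2 was far below the rest, and the log2 fold change was -0.62 (SE 0.34, adjusted p = 0.248). Rgs5, a regulator of G protein signalling in pericytes (chromosome 1, 169655501 to 169695813), read 19.4, 9.79, 16.7 and 21.7 CPM in naive and 18.3, 9.89, 7.39 and 14.6 CPM in injury libraries. Its lowest values came from naive 2, injury 2 and injury 3, and the log2 fold change was -0.43 (SE 0.28, adjusted p = 0.334). Vtn (vitronectin, -0.77, SE 0.51) and Higd1b (a mitochondrial protein enriched in pericytes, -0.40, SE 0.50) stood near 1 CPM or below, and neither passed the test. Notch3, the Notch receptor of mural cells, was higher in all 4 pairs, with an adjusted p of 0.578 (log2 fold change 0.21, SE 0.23).

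No smooth muscle gene passed the test. Acta2 (smooth muscle actin), the mural gene with the highest level, read 16.55 to 26.5 CPM in naive and 18.6 to 24.3 CPM in injury libraries (-0.13, -0.47 to 0.20). Myh11 (smooth muscle myosin heavy chain; chromosome 16, 14194535 to 14291372) read 5.34, 7.88, 5.19 and 6.42 CPM in naive and 4.91, 4.04, 4.20 and 5.21 CPM in injury libraries. Injury was lower in all 4 pairs and the groups touched at about 5.2 CPM (log2 fold change -0.44, SE 0.20, adjusted p = 0.167). Tagln (transgelin, an actin-binding protein) was also lower in every pair, but did not pass the test (log2 fold change -0.41, SE 0.38, adjusted p = 0.497). Des (desmin, the muscle intermediate filament protein; chromosome 1, 75360329 to 75368579) read 0.811, 0.621, 0.601 and 1.09 CPM in naive and 1.64, 0.815, 3.19 and 1.04 CPM in injury libraries. Injury 1 and injury 3 lay above the naive range. The log2 fold change was 1.08 (SE 0.49, adjusted p = 0.156), or 0.57 at its lowest with 1 library left out. Cnn1 (calponin) held 74 counts over all libraries and was not tested. In the list of other contractile genes 0 of 9 tested were called; Tpm2 (tropomyosin 2, -0.46, adjusted p = 0.0943) and Mylk (myosin light chain kinase, 0.26, adjusted p = 0.260) had the smallest p.

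Sox18, Rgs5 and Tagln shared a pattern over libraries of both groups. In each, naive 2, injury 2 and injury 3 held the 3 lowest values of all 8, which 5.24% of all genes tested did. Most of those libraries are injury ones, and injury was lower in all 4 same-numbered pairs for Sox18 and Tagln. The pattern is therefore not separate from the injury label. Tagln read 4.77, 2.58, 5.63 and 6.94 CPM in naive and 4.55, 1.88, 2.71 and 6.01 CPM in injury libraries. The mean of those 3 libraries over the mean of the other 5 was 0.0329 for Sox18, 0.428 for Tagln and 0.498 for Rgs5. Without them the log2 fold changes were -0.82 for Sox18, -0.23 for Rgs5 and -0.14 for Tagln, and those of other mural genes moved too, to -0.17 for Cspg4, -0.17 for Myh11, -0.57 for Abcc9, 0.68 for Des and -1.09 for Higd1b. GC content of the last 100 bases of the annotated transcript was 18% for Sox18, 24% for Tagln and 28% for Rgs5, where the median over all genes tested was 36%. Over the 32 genes tested, Pearson's r between this GC content and the log2 ratio was 0.54 and Spearman's rho 0.66 (Pearson 0.58 without Sox18), as a description of points that share the same libraries. Over 12790 genes of the table Pearson's r was 0.33 and Spearman's rho 0.38. The 32 genes include Sox18, Rgs5 and Tagln, so the genes that showed the pattern also enter its correlation. The 10 genes with at least 45% GC had a median ratio of 1.17, with Vwf at 1.36 and Cldn5 at 1.33, and the 6 genes under 30% a median of 0.656. Other genes went against this order. Des, near 1 CPM, had the highest ratio of the 32, 1.49, at 30% GC, and Vtn had 0.865 at 54% GC. Abcb1a, at 19% GC and a ratio of 0.876, went less far than Sox18 at nearly the same GC content. The last 30 bases of 4 of these transcripts (GENCODE vM21, GRCm38) are shown, which run from 18% to 54% GC over their last 100 bases. A poly(A) signal AATAAA or ATTAAA is in capitals where the sense strand holds it.
Sox18: tttaATTAAActtttttctttaaaagggtt
Tagln: agtaaaaatcaaatcttaagcATTAAAaaa
Abcb1a: tataATTAAAagaccctaaggattctaaca
Cldn5: ttgctcagtaaatggtttgaacactttcaa

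These ends lie at chr2:181669836-181669865 (minus strand), chr9:45929619-45929648 (minus), chr5:8748546-8748575 (plus) and chr16:18778233-18778262 (plus). Either hexamer was present in the last 30 bases of 25 of the 34 marker genes and of 69.4% of 12790 genes tested, on the sense strand alone. Cldn5 held neither in this window, which says only that these letters are not there. The annotated end can differ from the end used in the ganglion.

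**Figure D3:**
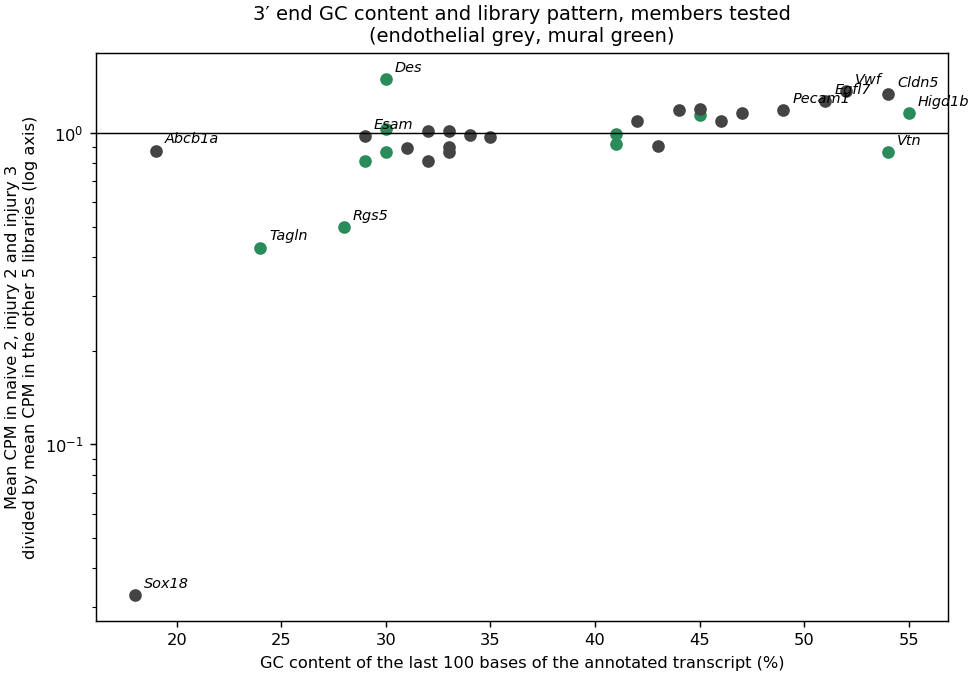
GC content of the last 100 bases of the annotated transcript (x axis, percent) against the mean CPM of naive 2, injury 2 and injury 3 divided by the mean CPM of the other 5 libraries (y axis, log scale), for 32 genes tested. Endothelial genes are grey and mural genes green. Sox18, Tagln and Rgs5 lie lowest, and Vwf and Cldn5 are among the genes above 1. Des lies highest, at 30% GC.

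The deposited table of 25-base windows at poly(A) sites gave counts by position for some of these genes. Whether each window is a true transcript end was not tested. Of 18 genes on the plus strand, 8 had windows with counts, while 9 had windows listed at 0 in every library despite their gene counts. The latter were left out, since 60.3% of the table's rows are at 0 throughout. A single window held between 96.4% and 100% of the gene's count for Cdh5, Cldn5, Emcn, Vwf, Pdgfrb and Higd1b. These genes were read almost wholly from 1 window. Ptprb was spread over 11 windows with counts. Its window with the most counts (chromosome 10, 116389501 to 116389526) held 26.4% ± 2.09 of the window counts in naive and 26.0% ± 9.87 in injury libraries. Another of its windows, starting at 116385564, held 14.1% ± 7.02 and 22.9% ± 5.14, with overlapping libraries.

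Rgs5 had counts at 3 windows. The middle one (chromosome 1, 169693478 to 169693503) held 73.8%, 45.6%, 64.0% and 68.5% of the window counts in naive and 66.9%, 49.9%, 47.6% and 65.7% in injury libraries 1 to 4. The lowest shares were those of naive 2, injury 2 and injury 3, and the group means were 63.0% ± 12.3 and 57.5% ± 10.2. The 100 bases before its end hold 27% GC. The distal window (169694565 to 169694590), with 44% GC before its end, held 25.4% ± 9.42 and 29.6% ± 4.22. The proximal window (169692584 to 169692609) is also AT-rich, with 30% GC before its end, but its share did not drop in those libraries. It held 15.2% to 18.3% in naive 2, injury 2 and injury 3 and 6.2% to 12.6% in the others. Whether GC content plays a part in these shares was not tested. The windows summed to 127.3% of Rgs5's gene count, so they include reads that the gene count does not. A further window in an intron of Pdgfrb, listed under the repeat class B2 (chromosome 18, 61078315 to 61078340), was chosen after its values were seen. It held 72, 86, 78 and 65 counts in naive and 255, 300, 238 and 119 counts in injury libraries, or 3.66 ± 0.66 and 10.2 ± 1.95 CPM. All injury libraries lay above all naive ones, and the difference was not tested. The share of other B2 windows that did so is not given, so nothing particular to Pdgfrb can be read from it. The window overlaps no annotated exon of Pdgfrb.

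**Figure D4:**
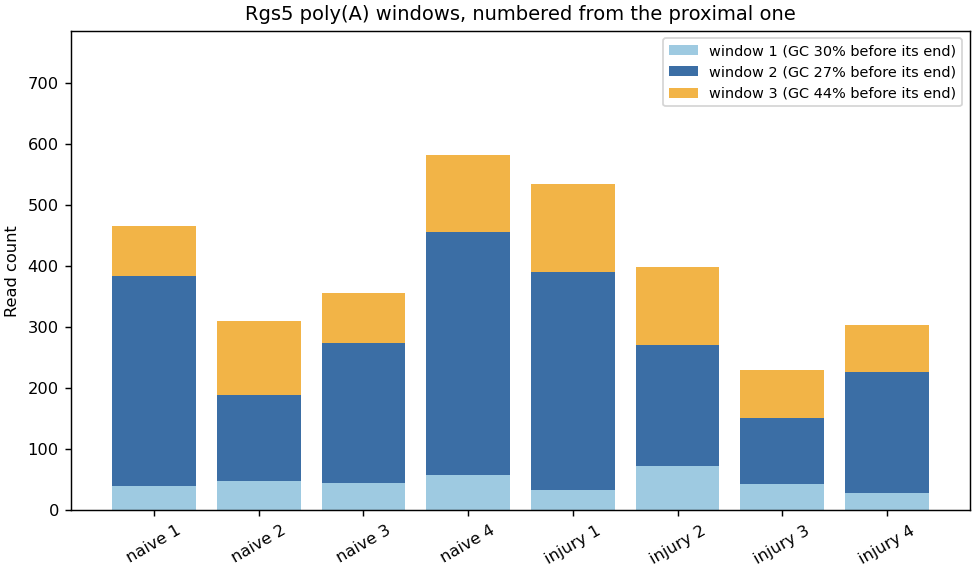
Read counts at the 3 poly(A) windows of Rgs5 in each library, stacked from the proximal window 1 to the distal window 3, not scaled for library size. The middle window (dark blue) gives 45.6%, 49.9% and 47.6% of the counts in naive 2, injury 2 and injury 3 and more in the other libraries.

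The ligands that act on endothelium were lower in injured ganglia in several cases, although their receptors were not called. In a list of 13 genes of the VEGF and angiopoietin system, 4 fell and 0 rose, where 7.75% of all genes tested were called lower and 10.1% higher. Vegfa, the main endothelial growth factor, read 44.9, 35.1, 43.1 and 46.8 CPM in naive and 36.3, 25.5, 23.3 and 28.5 CPM in injury libraries. Only injury 1 reached the naive range, and the log2 fold change was -0.58 (SE 0.15, adjusted p = 0.0166). Vegfb fell from 38.7 ± 5.29 to 28.3 ± 1.26 CPM without overlap (-0.45, SE 0.12, adjusted p = 0.0175). Pgf (placental growth factor, a ligand of Flt1) fell from 9.21 ± 2.54 to 5.44 ± 0.935 CPM (-0.76, adjusted p = 0.0326). Vegfc, the growth factor of lymphatic vessels, read 1.67, 1.82, 0.547 and 2.71 CPM in naive and 0.796, 0.390, 0.0966 and 0.429 CPM in injury libraries. Naive 3 lay within the injury range, and the log2 fold change was -1.96 (SE 0.61, adjusted p = 0.0423).

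These falls were close to the threshold. Vegfa lost its call without naive 4 or injury 2 (adjusted p up to 0.0535) and Vegfb without naive 3 or naive 4 (up to 0.0653). Pgf lost it without naive 3, naive 4, injury 1, injury 2 or injury 4 (up to 0.108). Vegfc kept it only without naive 3 or injury 1 among the libraries left out singly (up to 0.136), and lost it with limma-voom (0.0601) and without the 3 libraries named above (0.240).

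In the Notch system of vessels 1 of 11 genes fell and 0 rose, a share near the 7.75% of all genes called lower. Hes1, a Notch target used by many cell types, read 73.2, 68.3, 64.5 and 66.1 CPM in naive and 54.6, 31.0, 49.4 and 54.3 CPM in injury libraries. The groups did not overlap and injury 2 was lowest (-0.53, SE 0.15, adjusted p = 0.0342), but the call was lost without any 1 of the naive libraries (adjusted p up to 0.0897). Its log2 fold change was -0.32 when naive 2, injury 2 and injury 3 were left out. The ligand Jag2 had a log2 fold change of -0.71 (adjusted p = 0.0923). Of 10 genes tested for PDGF, TGF-beta and endothelin signals to mural cells 0 were called by edgeR; 2 had an unadjusted p under 0.05, S1pr3 (a sphingosine phosphate receptor, -0.37, adjusted p = 0.0773) and Ednra. Ednra, the endothelin receptor of smooth muscle, read 3.82, 3.49, 4.32 and 5.37 CPM in naive and 2.39, 0.248, 0.338 and 2.70 CPM in injury libraries. All injury libraries were lower, injury 2 and injury 3 by far the most. The log2 fold change was -1.62 (SE 0.60, adjusted p = 0.0842), and with the replicate number as a block, under the same assumption, it was -2.01 with an adjusted p of 0.0259. The mean of Ednra in naive 2, injury 2 and injury 3 was 0.365 times that in the other 5 libraries. Its fold change without those 3 is not given, so how far it rests on them is open.

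The genes that rose in the barrier list were 3 of its transporters. Over all genes tested, 10.1% were called higher and 7.75% lower. Among 13 genes of barrier junctions and transporters tested, 3 rose and 0 fell. They were Slc2a1 (the glucose transporter GLUT1), Slc7a5 (the large neutral amino acid transporter LAT1) and Abcg2 (a drug efflux pump), all 3 of which are also made by cells other than endothelium. Slc2a1 read 49.6, 51.9, 38.1 and 41.0 CPM in naive and 103, 97.0, 82.7 and 92.3 CPM in injury libraries, with no overlap (log2 fold change 1.05, SE 0.12, adjusted p = 6.17e-05). Slc7a5 rose from 28.3 ± 2.59 to 51.4 ± 17.1 CPM (0.86, adjusted p = 0.00728, or 0.50 without naive 2, injury 2 and injury 3), highest in injury 3, and Abcg2 from 119.8 ± 12.0 to 158.5 ± 11.1 CPM (0.40, adjusted p = 0.00845). The other 10 were not called. Nearest the threshold were 2 junction genes that went opposite ways. Jam2 was lower in all 4 pairs (log2 fold change -0.44, adjusted p = 0.0625) and Cldn12 higher in all 4 (0.42, adjusted p = 0.0738). The tight junction gene Tjp1 (-0.06, adjusted p = 0.794) and the lipid transporter gene Mfsd2a (-0.21, adjusted p = 0.381) lay further from it.

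In the list of activated endothelium 2 of 10 genes rose and 0 fell, beside 10.1% and 7.75% of all genes tested. Procr, the endothelial protein C receptor of the anticoagulant pathway, read 6.53, 4.68, 6.62 and 7.95 CPM in naive and 50.2, 52.9, 56.3 and 48.6 CPM in injury libraries. The groups did not overlap, and the log2 fold change was 3.01 (SE 0.15, adjusted p = 6.00e-08). The leukocyte adhesion genes Icam1, Vcam1, Sele and Selp, which define endothelial activation, were not called, with log2 fold changes of 0.43, 0.09, 0.74 and 0.57. Bulk counts do not tell which cells made the RNA of Procr or the transporters. Procr and the 3 transporters were called under each of 15 alternative settings.

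**Figure D5:**
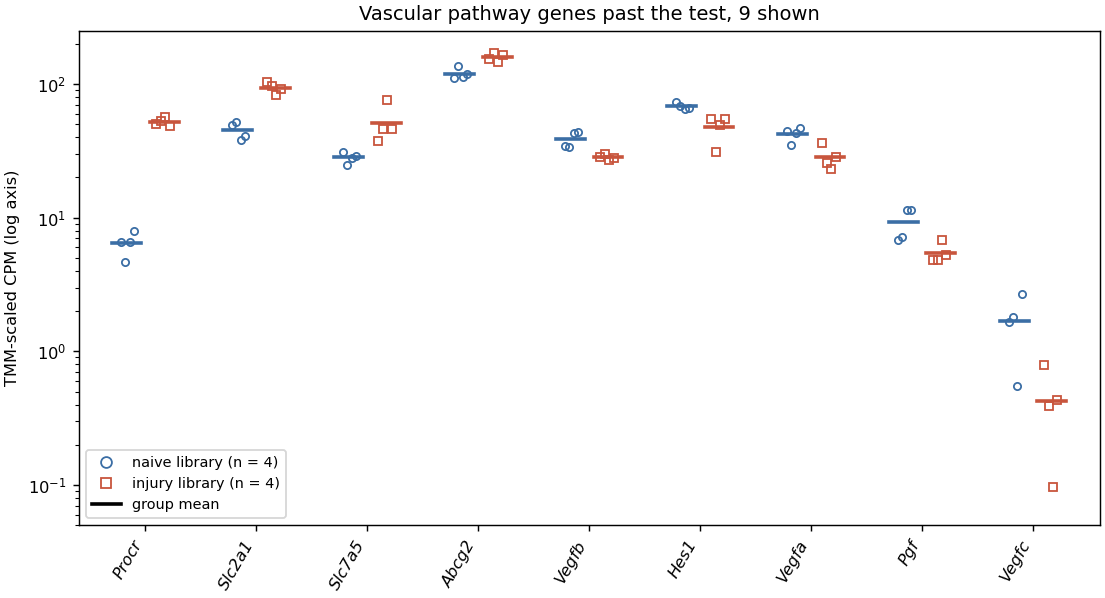
Level in every library, in TMM-scaled CPM on a log axis, of 9 vascular pathway genes past the test. Circles are naive and squares injury libraries (n = 4 each), and lines are group means. Procr shows the widest gap between the groups without overlap, and Vegfa and Vegfc overlap by 1 library each.

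Markers of other cells in the preparation were called in some lists, most often in the macrophage list when no block was used. Over all genes tested, 10.1% were called higher and 7.75% lower, and with the block 9.01% lower. Of 8 macrophage markers 7 rose and 0 fell, their sum going from 13.8 ± 4.71 to 46.6 ± 8.77 CPM (range 9.73 to 19.6 against 38.2 to 58.8 CPM), with Cx3cr1 at 1.96 ± 0.273 and 9.66 ± 2.93 CPM. The 8 neutrophil markers summed to 384 to 1326 CPM in naive and 136 to 485 CPM in injury libraries; 1 fell, Ltf (-1.24, adjusted p = 0.0419), or 7 with the replicate number as a block, if it marks the mouse. The red cell list summed to 22.8 ± 10.7 and 10.99 ± 8.15 CPM, with 5 of its 8 genes, all of them globins, at 0 in every library. Of its 3 genes tested 0 were called without the block and 2 with it, Slc4a1 (-2.14, adjusted p = 0.00289) and Alas2 (-0.97, adjusted p = 0.0118). Of 11 fibroblast markers tested 2 rose, Serpinf1 (log2 fold change 0.95) and Apod (0.92), with list sums of 516 to 793 and 658 to 910 CPM. The fibroblast collagen gene Col1a1 had a log2 fold change of 0.13 (adjusted p = 0.860), and Pdgfra of -0.53 (0.261). Skeletal muscle markers stood at 2.24 to 5.58 and 2.83 to 4.85 CPM, with 0 of 2 tested called and Atp2a1 at 0 in every library. Satellite glia rose in 1 of 8, Glul (0.63), with sums of 1128 to 1618 and 1417 to 1689 CPM. Sensory neuron markers rose in 1 of 8, Tubb3 (0.55), and fell in 1, Snap25 (-0.69), with sums of 16817 to 17625 and 17624 to 22277 CPM. The part of these cells in the vascular values was not tested.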

How the data were processed

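The members and gene lists were chosen with earlier results of these data known. RNA was made with QuantSeq 3′ mRNA-seq REV, per the labels' protocols. Reads went through bcl2fastq 2.17, STAR and HTSeq on build GRCm38/mm10, per the submitters' processing notes, where only the version of bcl2fastq is stated. The authors deposited whole-number read counts per gene, not normalized, and read counts per poly(A) window. A date stands where the gene symbol should be in 27 rows, which were kept in library sizes and tests. Columns were matched to samples by name and number.

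Counts were tested in R 4.3.3 with edgeR 4.0.16 (TMM, filterByExpr, quasi-likelihood test, group as the only term), adjusted by Benjamini-Hochberg over 13770 genes. Alternatives were limma 3.58.1 (voom), DESeq2 1.42.0, RLE factors, other filters, the replicate block and libraries left out. Only the main edgeR fit was tried on simulated counts. It called 38.8% of simulated 1.5-fold changes, 64.2% of 2-fold and 89.4% of 4-fold ones. There were 12 false calls among 13589 genes tested. The simulation changed 67, 67 and 66 genes, a smaller share than the 17.8% called in the data. It also held no pattern over libraries, so these rates need not hold for the data. CPM uses the TMM-scaled size of the tested genes. Depth was 16539644 to 28950551 counts per library; 3 counts, taken as the floor, are 0.104 to 0.181 CPM per library, which covers counting error only.

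The design text says that each mouse gave naive and injured ganglia, so libraries with the same number were treated as a pair, an assumption since no label ties the numbers to mice. Deviations from the group mean correlated within pairs 1 to 4 by 0.13, 0.22, 0.05 and 0.17, and naive 3 matched injury 4 best. Nothing else says how samples were separated, so p-values measure the spread between these libraries. Genes named are all 34 members, in each other list the called genes (at most 6, by p) and the 2 with the smallest p, and Atf3 and Sprr1a; other genes were chosen after their values were seen. Some genes picked in this way are not reported here.

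Annotation and transcript ends are from GENCODE vM21. Window coordinates are as deposited, with no statement of whether they count from 0 or 1.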

Additional observations from a re-analysis of the deposited data

Results flagged for a closer look

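In 7 of 88 groups of 4 libraries, 1 library stood apart from the other 3 by more than Dixon's critical value at the 95% level (the gap to its nearest neighbour over the group's range). Chance gives this in about 1 in 20 groups. In the injury group, injury 3 was the library apart for Kdr at 18.7 CPM (others 30.8 to 32.7), Cldn5 at 14.0 CPM (5.88 to 6.91), Eng at 15.7 CPM (8.58 to 8.82) and Notch3 at 5.60 CPM (3.68 to 3.86). Injury 4 was apart for Robo4 at 5.76 CPM (others 7.09 to 7.30). In the naive group, naive 3 was apart for Pdgfrb at 11.3 CPM (others 8.60 to 8.86) and Notch3 at 4.26 CPM (3.41 to 3.49). Injury 3 was high for Cldn5, Eng and Notch3 and low for Kdr.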

How the results depend on the processing

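With the replicate block, 1 endothelial gene was called in place of 0 (Sox18, log2 fold change -2.00); no call of a mural gene changed and, in the vascular pathway lists, Ednra was added. The count of genes called ran from 1738 to 2438 with 1 library left out, that of vascular pathway genes from 7 to 11, the endothelial median from -0.07 to 0.05 and the mural median from -0.45 to -0.25. No endothelial or mural gene was called in those fits. Without naive 2, injury 2 and injury 3 together the mural median was -0.17 and the endothelial median -0.15. That setting also turned the sign of Cldn5 (-0.26), Egfl7 (-0.14), Eng (-0.41), Kdr (0.0808), Pecam1 (-0.15), Plvap (-0.27) and Vwf (-0.17); the cause was not tested. Eng was -0.00395 with limma-voom, and Esam 0.00144 with RLE factors and 0.00231 with DESeq2. With 1 library left out, the signs of 8 genes turned at least once, in ranges of -0.16 to 0.34 (Cldn5), -0.25 to 0.11 (Eng), -0.0589 to 0.0512 (Esam), -0.14 to 0.11 (Kdr), -0.10 to 0.11 (Pecam1), -0.0229 to 0.30 (Plvap), -0.0228 to 0.18 (Slco1a4) and -0.0205 to 0.20 (Vwf). None of these genes was called under any setting. The settings for single pathway genes were added after the data had been seen. Higd1b and Vtn gave no value under the average log2 CPM filter. Vtn, Higd1b and Des lie near 1 CPM, and Erg (endothelial) and Cnn1 (mural) were too low to test.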
